A study of Mus musculus with 48 samples.

Results

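Expression of 10 receptors for gut and brain peptides was examined in enteroendocrine cells (EECs), the hormone-secreting cells of the gut epithelium, from the duodenum, ileum and colon of mice after gastric surgery. The receptors were taken by name from the deposited count table, which lists 53465 genes. They were Glp1r and Gipr (the receptors for GLP-1 and GIP), Sstr1, Sstr2, Sstr3 and Sstr5 (somatostatin receptors), Npy1r (the Y1 receptor for NPY and PYY), Galr1 (a galanin receptor), Cckar (the CCK-1 receptor) and Mc4r (the melanocortin-4 receptor). All 10 passed the filter on low counts, Cckar mainly through its colon libraries and Mc4r mainly through its duodenum libraries. The filter kept 15126 genes.

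All animals were lean male NeuroD1-cre/EYFP mice on a C57BL6 background, about 20 weeks old at surgery. Vertical sleeve gastrectomy (VSG) removed about 70% of the stomach, and in sham operations a suture was run along the same line without constricting the stomach. One sham group fed ad libitum, and the other, the weight-matched group, received its chow in 2 daily portions set to hold its body weight at that of the VSG mice. Every mouse had a liquid diet around surgery, analgesic and antibiotics, while weekly vitamin B12 was injected in the VSG mice. Tissue was taken 6 weeks after surgery, about 15 min after an oral load of glucose at 3 g/kg following an overnight fast. EYFP-positive cells were sorted from the first 5 cm of the small intestine (duodenum), its last 15 cm (ileum) and the colon with rectum. Because Cre was driven by the NeuroD1 promoter, EYFP marked any cell that expressed NeuroD1 or descended from one that had, and cell types of the EEC lineage were not separated. Of 17 mice, 15 gave all 3 regions, and each region had 16 libraries, from 6 VSG mice and 5 of each sham group. As these are bulk samples, fewer cells of a type and less RNA per cell cannot be told apart.

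All 10 genes encode G protein-coupled receptors. GLP-1 and GIP receptors act mainly through Gs to raise cAMP, which promotes hormone release. Somatostatin, Y1 and galanin-1 receptors act mainly through Gi/o, lower cAMP and restrain release. The CCK-1 receptor acts through Gq, and the melanocortin-4 receptor through Gs. EECs secrete several of the matching ligands, so a receptor on one EEC can be reached by a peptide from its neighbours.

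Total counts ran from 4648651 to 17182463 per library, with a median of 6713018, and levels are given as CPM, counts scaled to the TMM-adjusted library size, and levels of different genes were compared only per kilobase of exon (RPKM). The sorted identity was checked with 9 EEC markers (Neurod1, Chga, Chgb and others), whose summed level ran from 11608 to 73107 CPM in duodenum, 34191 to 83239 CPM in ileum and 29024 to 99064 CPM in colon. The lowest value belonged to the duodenum library of weight-matched mouse 27, where the other 15 duodenum libraries held 36781 to 73107 CPM. In that library the summed enterocyte markers reached 36939 CPM against 4384 to 12290 CPM in the others, and 7 of the 10 receptors had their lowest duodenal level there. Summed markers of pancreatic islet ran from 10.1 to 96.0 CPM in duodenum, 12.8 to 67.8 CPM in ileum and 62.5 to 192 CPM in colon, nearly all of it Iapp and Ppy, while Ins1 had 2 counts and Ins2 had 6 over all 48 libraries. Summed enteric neuron markers ran from 41.9 to 225, 67.7 to 174 and 49.7 to 139 CPM, most of it Ret (means 160, 100 and 78.1 CPM), with Uchl1 at means of 5.27, 7.83 and 9.93 CPM and Vip at 8 counts in all. Summed enteric glia markers never passed 3.35 CPM. Larger sums came from other epithelial cells. Goblet and Paneth markers ran from 2574 to 7561 CPM in duodenum, 2093 to 11271 CPM in ileum and 2126 to 10247 CPM in colon. Enterocyte markers ran from 3450 to 12022 CPM in ileum and 233 to 596 CPM in colon. Colonocyte markers ran from 21.8 to 178, 31.2 to 177 and 449 to 1686 CPM in duodenum, ileum and colon. The part of these cells in the receptor levels was not tested. The tissue label and the code in the description of mouse 12 were crossed for ileum and colon. The tissue label was used, and Gip stood at 739 CPM in its ileum library and 41.4 CPM in its colon library, against 1510 to 8043 CPM and 6.04 to 99.0 CPM in the other 15 of each region. Some values in which the mouse 27 duodenum library weighed are also given without it. The lowest duodenal levels of Sstr1, Sstr2, Sstr3 and Npy1r given below came from that library. Among the other 15 these levels began at 64.2, 4.54, 7.04 and 10.98 CPM. The RPKM order, the shares of somatostatin receptors, the means of other listed genes and the correlations include it.

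RefSeq start-site windows on GRCm38.p6 (250 bases before to 50 bases after a start) were found for 4 of the 10 receptors, as 5 windows. The window of Npy1r held only 20 bases before the annotated gene start and those of Sstr3 held none, and these are not shown. For Glp1r and Sstr2, edgeR called lower levels in ileum and in colon than in duodenum. The colonic call of Glp1r and the ileal call of Sstr2 were lost with the library index as a covariate. The stretches of Glp1r and Sstr2 that lie before the annotated gene start, of 200 and 250 bases, are shown. Both are on the plus strand, that of Glp1r at chr17:30901617-30901816 and that of Sstr2 at chr11:113619077-113619326. Capitals mark the only TGACGTCA, the palindromic cAMP response element, in any of the 5 windows.
Glp1r: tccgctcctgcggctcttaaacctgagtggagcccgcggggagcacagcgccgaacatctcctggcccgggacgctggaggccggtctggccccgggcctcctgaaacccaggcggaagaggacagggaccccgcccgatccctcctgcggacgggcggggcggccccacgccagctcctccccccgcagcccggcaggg
Sstr2: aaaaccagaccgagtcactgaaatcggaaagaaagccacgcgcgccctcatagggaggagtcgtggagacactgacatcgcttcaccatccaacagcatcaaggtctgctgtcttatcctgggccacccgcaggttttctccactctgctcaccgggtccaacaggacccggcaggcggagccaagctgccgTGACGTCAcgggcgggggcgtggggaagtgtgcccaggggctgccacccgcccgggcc
In Sstr2 the element began 58 bases before the start site and included both overlapping copies of TGACG, 1 on each strand. TGACGTCA was present in 1.79% of the 32851 mouse windows of the same length, searched on both strands. Neither window held CAGATG (present in 17.2% of windows), AGATAA (11.2%) or TTTATNG (10.9%). GC content was 73.7% in the Glp1r window and 66.3% in the Sstr2 window, against a median of 52.7% over all windows.

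Most of these receptors differed between regions of the gut, and none was called between surgery groups. In comparisons averaged over the surgery groups, edgeR's quasi-likelihood test with Benjamini-Hochberg adjustment over the 15126 genes called 6 receptors between ileum and duodenum (3 higher, 3 lower in ileum), against 33.8% of all genes. Between colon and duodenum it called 8 (3 higher, 5 lower in colon), against 55% of all genes. Between colon and ileum it called 8 (4 higher, 4 lower in colon), against 49.2% of all genes. These counts include Mc4r in both comparisons with duodenum and Cckar in both comparisons with colon. The filter on low counts favoured those calls in advance, so they add no separate support. The median log2 difference of the 10 receptors was 0.15, -0.59 and 0.04 in these comparisons, beside 0.00, -0.01 and -0.01 over all genes tested. Markers moved with region too. Of the 9 EEC markers, 5 were called lower and 0 higher in ileum than in duodenum (median -0.53), 6 lower and 1 higher in colon than in duodenum (-1.35), and 6 lower and 0 higher in colon than in ileum (-0.66). All 7 enterocyte markers were called lower in colon than in duodenum (median -5.52) and than in ileum (-5.65). With the summed EEC marker level as a covariate 7, 10 and 8 receptors were called, but that sum consisted mostly of Chga and Chgb, and the part of the other markers in the receptor differences was not tested. Npy1r rose towards the colon, Sstr5 and Galr1 were low in colon only, Sstr2 declined from duodenum to colon, Glp1r was lowest in ileum, Sstr1 was highest in ileum, Mc4r was mainly duodenal and Cckar mainly colonic.

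**Figure D1:**
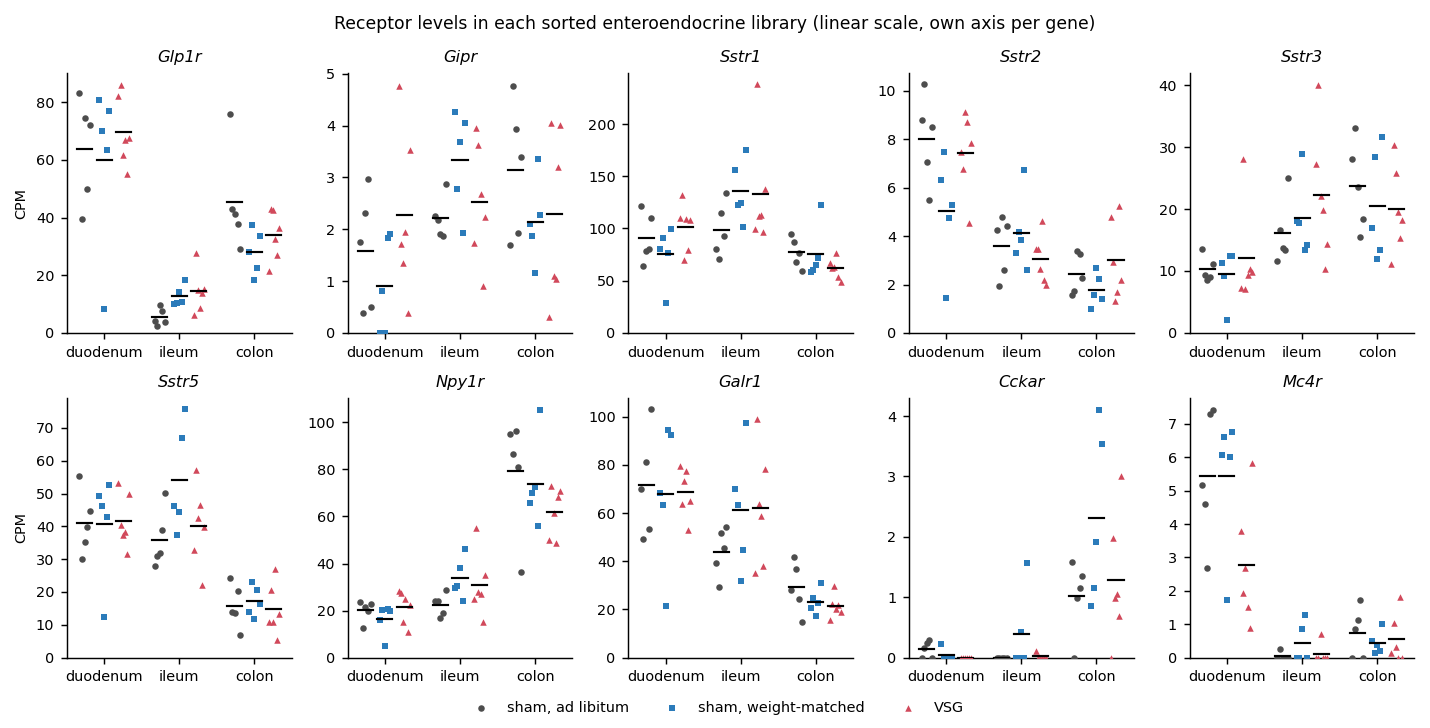
Levels of the 10 receptors in CPM (vertical axes) in duodenum, ileum and colon, with 1 point for each of the 48 libraries coloured by surgery group and a bar at each group mean. Npy1r climbs from duodenum to colon, Mc4r sits near 0 outside the duodenum, and the low duodenal point of several receptors is weight-matched mouse 27.

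Glp1r (ENSMUSG00000024027, chr17:30901817-30940791 on the plus strand of GRCm38), which encodes the GLP-1 receptor, was highest in duodenum. Its level over 16 duodenum libraries had a lowest value of 8.24, a median of 68.9 and a highest value of 85.9 CPM. The lowest value was that of mouse 27, and without it the range began at 39.6 CPM. In ileum the lowest, median and highest values were 2.56, 10.1 and 27.8 CPM, and in colon 18.4, 35.0 and 76.1 CPM. Without mouse 27, the duodenum and ileum ranges did not overlap, whereas colon overlapped both. Duodenum exceeded ileum in 14 of 15 mice, the exception being mouse 27, and colon exceeded ileum in 16 of 16. On the log2 scale Glp1r was lower in ileum than in duodenum by a difference of -2.68 (SE 0.22, edgeR adjusted p = 2.14e-13) and higher in colon than in ileum by 1.81 (SE 0.22, edgeR adjusted p = 1.85e-09). Colon stood below duodenum by a difference of -0.87 (SE 0.20, edgeR adjusted p = 0.000255), in 13 of 15 mice.

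For that last difference, region and sequencing index cannot be told apart. Of the 4 values of the second library index, D502 was used for 12 duodenum libraries only, and only 1 colon library, that of mouse 12, shared an index with any duodenum library. With the index as a covariate, the Glp1r difference between colon and duodenum became 0.13 (edgeR adjusted p = 0.885), the reverse direction. Within index D501 the duodenal mean of Glp1r was 65.0 CPM ± 22.6 (SD, n = 3, without mouse 27) and the ileal mean 11.8 CPM ± 7.78 (SD, n = 7). Within index D503 the colonic mean was 30.1 CPM ± 6.46 (SD, n = 4) and the ileal mean 11.3 CPM ± 5.14 (SD, n = 8). The low ileal level therefore held within both indexes, and the order of colon and duodenum could not be read within 1 index.

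Gipr (ENSMUSG00000030406, chr7:19156061-19166127, minus strand), the receptor for the incretin GIP, was low in every region. The lowest, median and highest levels were 0, 1.74 and 4.77 CPM in duodenum, 0.914, 2.47 and 4.27 CPM in ileum, and 0.308, 2.18 and 4.77 CPM in colon. The regions overlapped almost entirely, and the totals over 16 libraries were 218, 293 and 268 counts. Gipr stood higher in ileum than in duodenum in 12 of 15 mice, with a log2 difference of 0.86 (SE 0.36) that missed the threshold (edgeR adjusted p = 0.0563). With the mouse as a fixed block in edgeR it passed, at 1.13 (adjusted p = 0.0364). For colon against duodenum the difference was 0.76 (SE 0.36, edgeR adjusted p = 0.0655), and 0.98 with the block (adjusted p = 0.0478). DESeq2 also called both, at 0.86 (adjusted p = 0.0325) and 0.78 (adjusted p = 0.0385). With limma's voom fit and a mouse block they were 1.54 (adjusted p = 0.000830) and 1.27 (adjusted p = 0.00337), and with the library index as a covariate in edgeR 2.69 (adjusted p = 0.0121) and 2.57 (adjusted p = 0.0193). Colon and ileum differed by -0.10, with a 95% interval from -0.80 to 0.60.

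Of the somatostatin receptors, which mediate inhibition by the peptide of D cells, Sstr1 was the most abundant per length in every region. Among the 4 measured here it took 67.7% ± 3.13 (SD, n = 16 libraries) of their summed RPKM in duodenum, 73.0% in ileum and 74.4% in colon. Sstr5 took 23.5%, 19.4% and 12.3%, Sstr3 3.74%, 5.49% and 10.6%, and Sstr2 5.03%, 2.14% and 2.66%. The share of Sstr5 was thus lower and that of Sstr3 higher in colon than in duodenum, as a description of shares that sum to a fixed total.

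Sstr1 (ENSMUSG00000035431, chr12:58211772-58214444, plus strand) had lowest, median and highest levels of 28.2, 85.9 and 132 CPM in duodenum, 70.8, 114 and 238 CPM in ileum, and 49.1, 66.1 and 123 CPM in colon. Ileum was highest, with ranges that overlapped. It exceeded duodenum in 13 of 15 mice, by 0.45 on the log2 scale (SE 0.14, edgeR adjusted p = 0.00943). Colon was below ileum in 14 of 16 mice, with a difference of -0.77 (SE 0.14, edgeR adjusted p = 1.07e-05). Colon against duodenum gave -0.31 (SE 0.14, edgeR adjusted p = 0.0551). This difference passed when the mouse 27 duodenum library was left out (-0.37, adjusted p = 0.0129) and turned to 0.33 with the library index as a covariate (adjusted p = 0.506).

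Sstr2 (ENSMUSG00000047904, chr11:113619342-113626028, plus strand) fell stepwise along the gut. Its lowest, median and highest levels were 1.45, 7.27 and 10.3 CPM in duodenum, 1.92, 3.48 and 6.72 CPM in ileum, and 0.985, 2.22 and 5.26 CPM in colon. Ranges overlapped, and duodenum was above ileum in 13 of 15 mice and above colon in 13 of 15. The log2 difference was -0.91 for ileum against duodenum (SE 0.20, edgeR adjusted p = 0.000281) and -1.52 for colon against duodenum (SE 0.21, edgeR adjusted p = 1.29e-08). Colon was below ileum by a difference of -0.61 (SE 0.21, edgeR adjusted p = 0.0140). With the index as a covariate the first became -0.76 (adjusted p = 0.281) and the last -0.71 (adjusted p = 0.0524).

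Sstr3 (ENSMUSG00000044933, chr15:78537008-78544685, minus strand), known from the primary cilium of neurons, was lowest in duodenum, where the lowest, median and highest levels were 2.02, 9.65 and 28.1 CPM, against 10.2, 17.2 and 40.0 CPM in ileum, and 11.1, 18.9 and 33.0 CPM in colon. Ileum exceeded duodenum in 13 of 15 mice, by 0.83 on the log2 scale (SE 0.21, edgeR adjusted p = 0.00135). Colon exceeded duodenum in 15 of 15, by 1.02 (SE 0.21, edgeR adjusted p = 4.09e-05). Colon and ileum differed by 0.19, with a 95% interval from -0.22 to 0.60 (edgeR adjusted p = 0.472).

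Sstr5 (ENSMUSG00000050824, chr17:25489875-25497288, minus strand) was lower in colon than in both parts of the small intestine. Its lowest, median and highest levels were 12.4, 41.5 and 55.3 CPM in duodenum, 22.1, 41.1 and 75.6 CPM in ileum, and 5.49, 13.8 and 27.045 CPM in colon. Only mouse 27 placed a duodenum library within the colon range, since the next lowest duodenum level was 29.98 CPM. Colon was below duodenum in 15 of 15 mice and below ileum in 16 of 16. The log2 differences were -1.37 (SE 0.18, edgeR adjusted p = 7.34e-09) and -1.43 (SE 0.18, edgeR adjusted p = 4.56e-09). The call against duodenum was lost with the index covariate (-0.75, adjusted p = 0.174). Ileum and duodenum differed by 0.05, with a 95% interval from -0.29 to 0.40.

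Npy1r (ENSMUSG00000036437, chr8:66697192-66706792, plus strand) encodes the Y1 receptor, through which NPY and PYY act. Its level rose along the gut, with lowest, median and highest values of 5.06, 20.4 and 28.3 CPM in duodenum, 14.998, 27.5 and 55.3 CPM in ileum, and 36.5, 70.3 and 105 CPM in colon. No colon library overlapped the duodenum range. Colon was the highest region in all 15 mice with 3 regions. Colon exceeded duodenum by 1.89 on the log2 scale (SE 0.16, edgeR adjusted p = 7.95e-14) and ileum by 1.31 (SE 0.16, edgeR adjusted p = 2.23e-09). Ileum exceeded duodenum by 0.58 (SE 0.16, edgeR adjusted p = 0.00445), in 13 of 15 mice. Of the 3452 stretches of 50 bases in its transcripts, 98 also occurred in transcripts of other genes, so a small part of its counts could be shared.

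Galr1 (ENSMUSG00000024553, chr18:82392380-82406777, minus strand), a receptor for the neuropeptide galanin, had the opposite colonic pattern. Over 16 libraries each, the lowest, median and highest levels were 21.5, 69.3 and 103 CPM in duodenum, 29.3, 53.0 and 98.9 CPM in ileum, and 14.96, 22.3 and 41.7 CPM in colon. Mouse 27 gave the only duodenum library inside the colon range, the next being at 49.3 CPM. Colon was below duodenum in 15 of 15 mice (log2 difference -1.502, SE 0.17, edgeR adjusted p = 2.17e-10) and below ileum in 15 of 16 (-1.17, SE 0.17, edgeR adjusted p = 1.16e-07). The first became -0.93 with the index covariate (adjusted p = 0.0668). Ileum against duodenum gave -0.33 (SE 0.16, edgeR adjusted p = 0.116), which passed without the mouse 27 duodenum library (-0.41, adjusted p = 0.0272) and turned to 0.26 with the index covariate (adjusted p = 0.707).

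Cckar (ENSMUSG00000029193, chr5:53697776-53707705, minus strand), the receptor through which CCK acts on gallbladder, pancreas and vagal afferents, was close to undetected in the small intestine. It had 9 counts over 16 duodenum libraries, of which 12 were at 0, and 16 counts over 16 ileum libraries, of which 13 were at 0. Of the ileal counts, 12 came from weight-matched mouse 31. In colon it had 158 counts, with lowest, median and highest levels of 0, 1.15 and 4.09 CPM, and 2 libraries at 0. Mean levels were 0.0587, 0.132 and 1.52 CPM in duodenum, ileum and colon. Colon was above duodenum in 13 of 15 mice (edgeR adjusted p = 1.30e-07) and above ileum in 14 of 16 (edgeR adjusted p = 1.76e-06). Cckar passed the filter on low counts mainly through colon, so calls in this direction were favoured in advance and add no separate support. Because VSG duodenum and sham ad libitum ileum held no count, fitted fold changes depend on the prior count and are not given as sizes. Ileum and duodenum were both too sparse to compare.

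Mc4r (ENSMUSG00000047259, chr18:66857704-66860506, minus strand), best known for the control of food intake in the hypothalamus, was almost restricted to duodenum. Its lowest, median and highest levels there were 0.884, 4.89 and 7.41 CPM (616 counts). Ileum held 21 counts, with 12 of 16 libraries at 0 and a highest level of 1.28 CPM. Colon held 62 counts, with 4 libraries at 0 and a highest level of 1.83 CPM. Duodenum was above ileum in 15 of 15 mice and above colon in 14 of 15. The log2 differences were -4.66 for ileum against duodenum (SE 0.57, edgeR adjusted p = 4.51e-09) and -2.89 for colon against duodenum (SE 0.48, edgeR adjusted p = 1.05e-06). Mc4r passed the filter on low counts mainly through duodenum, so these calls were favoured in advance and add no separate support. Colon exceeded ileum by 1.77 (SE 0.62, edgeR adjusted p = 0.0159), a call lost with the mouse as a fixed block (1.55, adjusted p = 0.0866), with the index covariate (0.74, adjusted p = 0.538) and without mouse 31 (1.48, adjusted p = 0.0569).

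**Figure D2:**
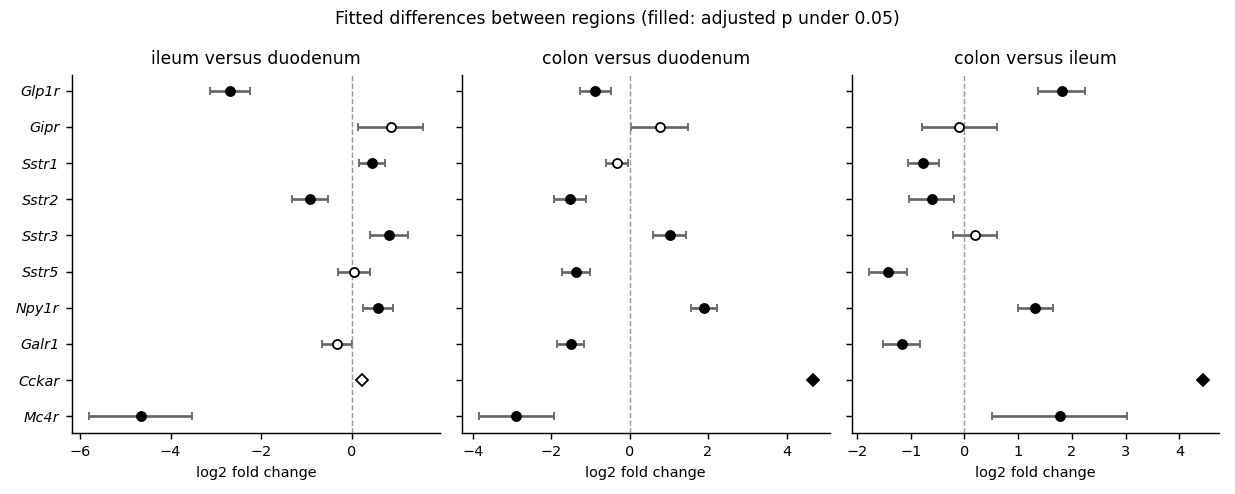
Log2 differences of the 10 receptors between regions (horizontal axis) from the edgeR fit over 48 libraries, with bars for 95% intervals. Cckar is drawn as a diamond with no interval, and Npy1r lies above 0 in all 3 comparisons while Sstr2 lies below 0 in all 3.

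**Figure D3:**
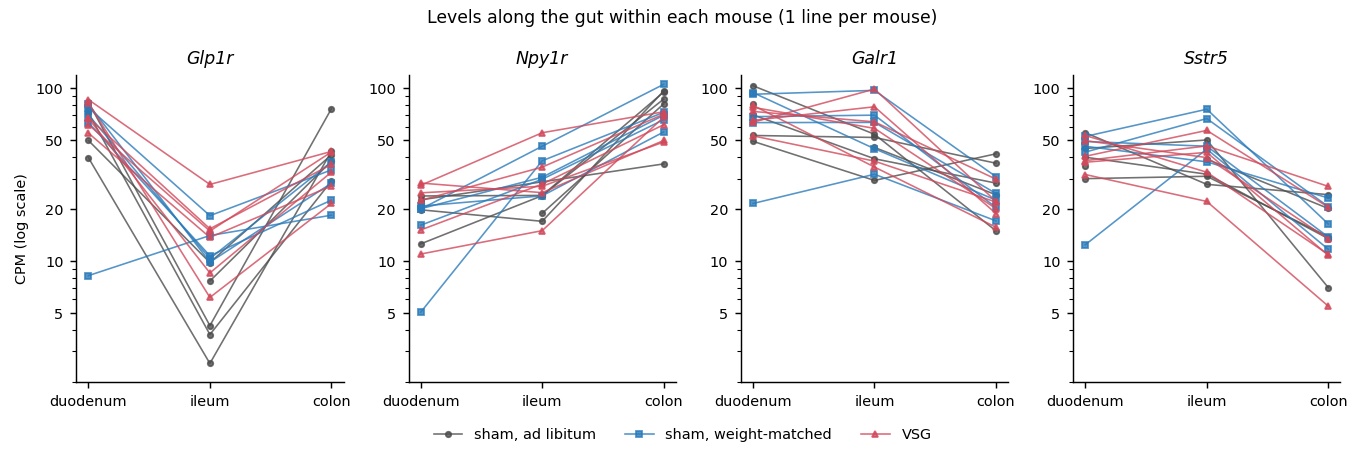
Levels in CPM (log axis) of Glp1r, Npy1r, Galr1 and Sstr5 in the 3 regions (horizontal axis), with a line for each mouse coloured by surgery group. The lines of Npy1r rise to the colon in all 15 complete sets, and the line that starts far below the others in duodenum is mouse 27.

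Per kilobase of exon, the order of the 10 receptors differed between regions. In duodenum the mean RPKM was 43.9 for Sstr1, 23.2 for Galr1, 15.1 for Sstr5, 11.2 for Glp1r and 5.64 for Npy1r, and each exceeded the next in at least 15 of 16 libraries. Sstr2 (3.21 RPKM) was above Sstr3 (2.47 RPKM) in 12 of 16, and Sstr3 above Mc4r (1.58 RPKM) in 12 of 16. Gipr (0.469 RPKM) and Cckar (0.0159 RPKM) were last.

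In ileum Sstr1 led with 60.2 RPKM, above the next receptor in 16 of 16 libraries. Galr1 (18.8 RPKM) and Sstr5 (15.8 RPKM) were not separated, with Galr1 above in 11 of 16 libraries, and neither were Glp1r (1.91 RPKM) and Sstr2 (1.66 RPKM), with Glp1r above in 8 of 16. Npy1r (8.43 RPKM) and Sstr3 (4.44 RPKM) lay between these pairs, and Gipr (0.771 RPKM), Mc4r (0.0688 RPKM) and Cckar (0.0358 RPKM) closed the order. In colon Sstr1 (34.7 RPKM) was followed by Npy1r (20.6 RPKM) in 16 of 16 libraries. Galr1 (8.16 RPKM) came next, and Glp1r (6.14 RPKM), Sstr5 (5.78 RPKM) and Sstr3 (4.94 RPKM) were not separated, since Glp1r was above Sstr5 in 7 of 16 libraries and Sstr5 above Sstr3 in 10 of 16. Sstr2 (1.14 RPKM), Gipr (0.721 RPKM), Cckar (0.413 RPKM) and Mc4r (0.207 RPKM) were lowest.

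**Figure D4:**
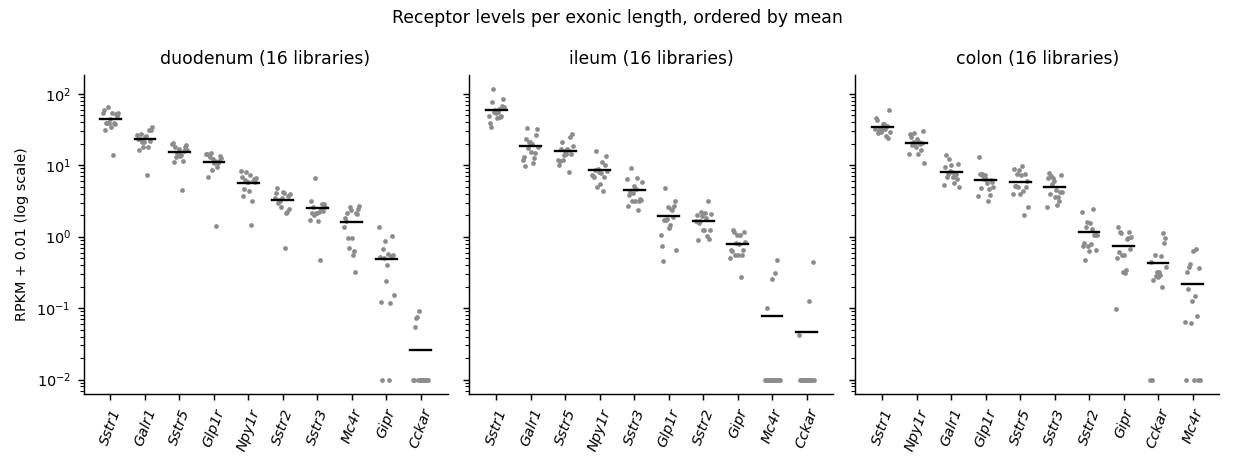
Mean RPKM of the 10 receptors in each region (log axis, 0.01 RPKM added), with 1 point per library and a bar at the mean of 16 libraries. Sstr1 is highest in all 3 regions, and Npy1r moves from behind Galr1, Sstr5 and Glp1r in duodenum to directly behind Sstr1 in colon.

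The genes for the ligands of these receptors followed their own regional pattern. Of 13 ligand genes 8 were tested. In ileum against duodenum edgeR called 3 higher and 4 lower (median log2 difference -0.48), in colon against duodenum 2 higher and 4 lower (-3.21), and in colon against ileum 1 higher and 5 lower (-1.04). Gip, the ligand of Gipr, had mean levels of 18490, 4783 and 33.8 CPM in duodenum, ileum and colon, with log2 differences of -1.97 for ileum and -9.06 for colon against duodenum (edgeR adjusted p = 1.85e-05 and 4.71e-20). Cck fell from 3662 through 417 to 21.7 CPM, and Sst, the ligand of the somatostatin receptors, from 4004 through 1738 to 81.1 CPM. Pyy rose from 116 CPM in duodenum to 809 CPM in ileum and 575 CPM in colon, and Ppy from 0.0547 to 4.47 and 51.1 CPM. Gcg, which encodes GLP-1, was higher in ileum (1252 CPM) than in duodenum (627 CPM) and colon (815 CPM), by 0.99 over duodenum (edgeR adjusted p = 0.00284) and with a colonic difference of -0.62 from ileum (adjusted p = 0.0457). As descriptions of means over 3 regions, Glp1r was lowest where Gcg was highest, and Cckar was highest where Cck was lowest. Npy1r and Pyy were both higher in colon than in duodenum, but Pyy was highest in ileum and Npy1r in colon. Sst fell along the gut as Sstr2 did, while Sstr5 was low in colon only, Sstr1 highest in ileum and Sstr3 lowest in duodenum. Gip fell along the gut, while Gipr was low in every region. Gast was at 24.4 CPM in duodenum and at or near 0 elsewhere. It passed the filter on low counts mainly through duodenum, and Ppy mainly through ileum and colon, so any calls in those directions were favoured in advance. Pomc stayed between 0.660 and 1.33 CPM and was lower in colon than in ileum (-1.07, edgeR adjusted p = 0.0248). Cort, Npy, Gal, Galp and Agrp did not pass the filter, and Gal, the ligand of Galr1, had 52 counts in all.

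Of 19 other receptors of the same families 4 were tested. Vipr1, a VIP receptor, had means of 66.0, 89.5 and 146 CPM in duodenum, ileum and colon, and colon exceeded duodenum by 1.17 and ileum by 0.68 on the log2 scale (edgeR adjusted p = 7.27e-06 and 0.00583). In the duodenum library of mouse 27 the summed level of these receptors was 294 CPM, against 41.3 to 86.5 CPM in the other 15. Vipr2 had 0.317, 0.173 and 19.6 CPM and its colonic level exceeded duodenum by 5.97 and ileum by 6.93 (edgeR adjusted p = 5.49e-18 and 5.84e-18). At these levels Vipr2 passed the filter on low counts mainly through colon, so both calls were favoured in advance and add no separate support. Galr3 declined as Galr1 did in colon, with 6.84, 4.54 and 2.87 CPM and log2 differences of -0.59, -1.26 and -0.66 (edgeR adjusted p = 0.0352, 7.37e-06 and 0.0163). Adcyap1r1 was called in no region comparison. Sstr4 had 5 counts over 48 libraries, Npy4r 7 and Mc2r 0, and the median log2 difference of the tested genes, Vipr2 included, was -0.05, 1.05 and 0.19.

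Of 20 signalling partners 18 were tested, and edgeR called 7 higher and 5 lower in ileum than in duodenum, 5 higher and 8 lower in colon than in duodenum, and 5 higher and 6 lower in colon than in ileum. Their median log2 differences were 0.03, -0.18 and -0.07. Among Gi/o subunits, through which the somatostatin, Y1 and galanin receptors signal, Gnai1 had colonic differences of -1.71 against duodenum and -2.20 against ileum, and Gnao1 of -1.15 and -0.74. Gnai2, at 309 to 330 CPM, was called in no comparison. Gnal, a Gs-like subunit, was lower in ileum than in duodenum by a difference of -1.56, in the same direction as Glp1r and Mc4r. Of the receptor activity-modifying proteins, Ramp1 was higher in colon by 2.32 against duodenum and 2.63 against ileum, Ramp2 was higher in colon than in duodenum by 1.41, and Ramp3 was lower in colon than in ileum by a difference of -2.94. Gnaz was higher in colon than in ileum by 0.95. The called differences of Gnas, Gnai3, Gnaq, Gna11, Arrb1, Arrb2, Grk2, Grk5 and Grk6 lay between -0.57 (Arrb2) and 0.43 (Grk6). Mrap and Mrap2, accessory proteins of melanocortin receptors, had 7 and 17 counts over all libraries and were not tested.

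Between surgery groups none of the 10 receptors was called in any of the 12 contrasts or in the test of whether the surgery contrasts differed between regions. For means over the 3 regions, edgeR called 0 receptors for VSG against sham ad libitum (0% of all genes), 0 for VSG against sham weight-matched (0.245%) and 0 for weight-matched against ad libitum (0.0529%). The counts at an unadjusted edgeR p under 0.05 were 0, 1 and 0, against 5.53%, 9.92% and 6.39% of all genes. Within duodenum, ileum and colon, VSG against ad libitum also gave 0 receptors in each region (0%, 0% and 0% of all genes). At an unadjusted edgeR p under 0.05 there were 1, 1 and 0 receptors, against 2.45%, 6.16% and 6.28% of all genes. VSG against weight-matched gave 0 receptors (0.225%, 0.0463% and 0.0595%), with 1, 1 and 1 at the unadjusted threshold (8.71%, 6.38% and 3.65% of all genes). Weight-matched against ad libitum gave 0 receptors (0%, 0% and 0.0132%), with 0, 2 and 0 at the unadjusted threshold (6.55%, 7.85% and 3.66% of all genes). The interaction of surgery and region gave 0 receptors (0%), with 2 at an unadjusted edgeR p under 0.05, against 4.9% of all genes. These 2 were Glp1r and Cckar, both at an edgeR adjusted p of 1. No surgery contrast had a receptor called by DESeq2 or by limma's voom fit with a mouse block either. VSG and weight-matched mice were compared with the same ad libitum mice, so these contrasts are not independent.

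The lowest p among the surgery contrasts was that of Glp1r in ileum. Its levels were 2.56, 3.76, 4.23, 7.67 and 9.81 CPM in the 5 sham ad libitum mice and 9.86, 10.3, 10.7, 14.1 and 18.3 CPM in the 5 weight-matched mice, while the 6 VSG mice had a lowest value of 6.16, a median of 14.3 and a highest value of 27.8 CPM. Every weight-matched mouse was above every ad libitum mouse, although the nearest pair stood at 9.86 and 9.81 CPM, and VSG overlapped both. This was the only 1 of 90 pairs of surgery groups, over 10 receptors and 3 regions, whose values did not overlap. The share of such pairs over all genes tested was not counted, so this separation does not single out Glp1r. The Glp1r means in ileum were 5.604 ± 3.02 (SD, n = 5), 12.7 ± 3.57 (SD, n = 5) and 14.4 ± 7.51 CPM (SD, n = 6). The log2 difference of VSG from ad libitum was 1.43 (SE 0.40, 95% interval 0.62 to 2.23, edgeR adjusted p = 0.399). That of weight-matched from ad libitum was 1.22 (SE 0.41, edgeR adjusted p = 0.508). Across 27 alternatives the first ran from 1.05 to 1.70, with adjusted p from 0.0987 to 1. The summed EEC markers in ileum ran from 34191 to 45494 CPM in ad libitum, 40183 to 51204 CPM in weight-matched and 34559 to 83239 CPM in VSG mice, and with their level as a covariate the 2 differences were 1.05 (edgeR adjusted p = 0.433) and 1.06 (adjusted p = 0.327). In the other regions the Glp1r groups overlapped, and in colon weight-matched mice stood lower than ad libitum mice (-0.70, SE 0.36, edgeR adjusted p = 1). Over the mean of regions VSG against ad libitum gave 0.38 (SE 0.21, edgeR adjusted p = 0.921).

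Glp1r was also the receptor of lowest p in the comparisons just given, and other receptors took that place in the rest. Gipr in duodenum was at 0, 0, 0.799, 1.82 and 1.91 CPM in weight-matched mice, with a lowest of 0.379 and a highest of 4.77 CPM in VSG mice. The groups overlapped, and the log2 difference was 1.38 (SE 0.64, edgeR adjusted p = 0.504), or 1.06 without mouse 27, which was at 0 (adjusted p = 1). Sstr2 in colon was higher in VSG than in weight-matched mice by 0.78 (SE 0.37, edgeR adjusted p = 1), with overlapping ranges of 1.31 to 5.26 and 0.985 to 2.69 CPM. Sstr2 in duodenum was lower in weight-matched than in ad libitum mice by a difference of -0.66 (SE 0.34, edgeR adjusted p = 0.807), and the lowest weight-matched value, 1.45 CPM, was that of mouse 27, without which the difference was -0.42 (SE 0.34, edgeR adjusted p = 1). Galr1 in colon differed by -0.45 between VSG and ad libitum mice (SE 0.29, edgeR adjusted p = 0.803).

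Cckar had the lowest p in the remaining contrasts, all on few counts. In duodenum the 6 VSG libraries held no count, which allows up to 0.0590 CPM over the group, and the 5 ad libitum libraries were at 0, 0, 0.165, 0.243 and 0.298 CPM (edgeR adjusted p = 1). In ileum VSG had 1 count, against weight-matched levels of 0, 0, 0, 0.426 and 1.57 CPM (edgeR adjusted p = 0.608). For the mean of regions, VSG against weight-matched gave an edgeR adjusted p = 0.327, and weight-matched against ad libitum an adjusted p = 0.806. In colon, where Cckar was detected, its levels were 0, 0.984, 1.15, 1.36 and 1.58 CPM in ad libitum mice and 0.862, 1.15, 1.92, 3.53 and 4.09 CPM in weight-matched mice, with VSG between 0 and 3.01 CPM. These groups overlapped.

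Mc4r in duodenum, the region where it was expressed, was at 2.68, 4.61, 5.16, 7.29 and 7.41 CPM in ad libitum mice and at 1.73, 6.02, 6.08, 6.59 and 6.76 CPM in weight-matched mice. The 6 VSG mice had a lowest of 0.884, a median of 2.31 and a highest of 5.84 CPM. VSG libraries sat low within overlapping ranges, and the log2 difference from ad libitum was -0.95 (SE 0.70, 95% interval -2.37 to 0.46, edgeR adjusted p = 1). For Sstr1, Sstr3, Sstr5, Npy1r and Galr1 the 95% intervals of the log2 differences between surgery groups within a region were 0.953 (Sstr1) to 1.502 (Sstr3) wide from end to end. The widest reached 1.57 for Sstr2, 1.67 for Glp1r, 2.67 for Gipr and 5.81 for Mc4r, and Cckar was too sparse for such a width. These widths set the size of difference that 5 or 6 mice a group could show.

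In ileum several receptors besides Glp1r had their lowest mean in ad libitum mice, with no call. Sstr1 averaged 98.6 ± 25.8 CPM (SD, n = 5) in ad libitum, 136 ± 29.4 CPM (n = 5) in weight-matched and 133 ± 53.6 CPM (n = 6) in VSG mice. Npy1r averaged 22.5 ± 4.66, 33.7 ± 8.61 and 30.9 ± 13.6 CPM in the same order. The weight-matched difference of Npy1r was 0.58 (SE 0.29, edgeR adjusted p = 0.632) and that of Sstr5 was 0.59 (SE 0.31, edgeR adjusted p = 0.652). The median over the 10 receptors in ileum was 0.59 for weight-matched and 0.48 for VSG against ad libitum mice, beside 0.00 and 0.01 over all genes tested and 0.30 and 0.33 over the 9 EEC markers. In colon the medians of the receptors were -0.28 and -0.34 and those of the EEC markers -0.21 and -0.36. Within each of these regions the medians of both lists had the same sign, with no member of either list called. The receptor medians include Cckar and Mc4r, which held few counts in ileum, and the part of EEC marker level in them was not tested. In colon Npy1r, for example, averaged 79.1 ± 24.6 CPM in ad libitum and 62.02 ± 10.55 CPM in VSG mice. In duodenum Sstr5 averaged 41.1, 40.6 and 41.8 CPM and Galr1 71.4, 67.97 and 68.7 CPM in ad libitum, weight-matched and VSG mice. Without mouse 27 the weight-matched means were 47.7 CPM for Sstr5 and 79.6 CPM for Galr1.

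**Figure D5:**
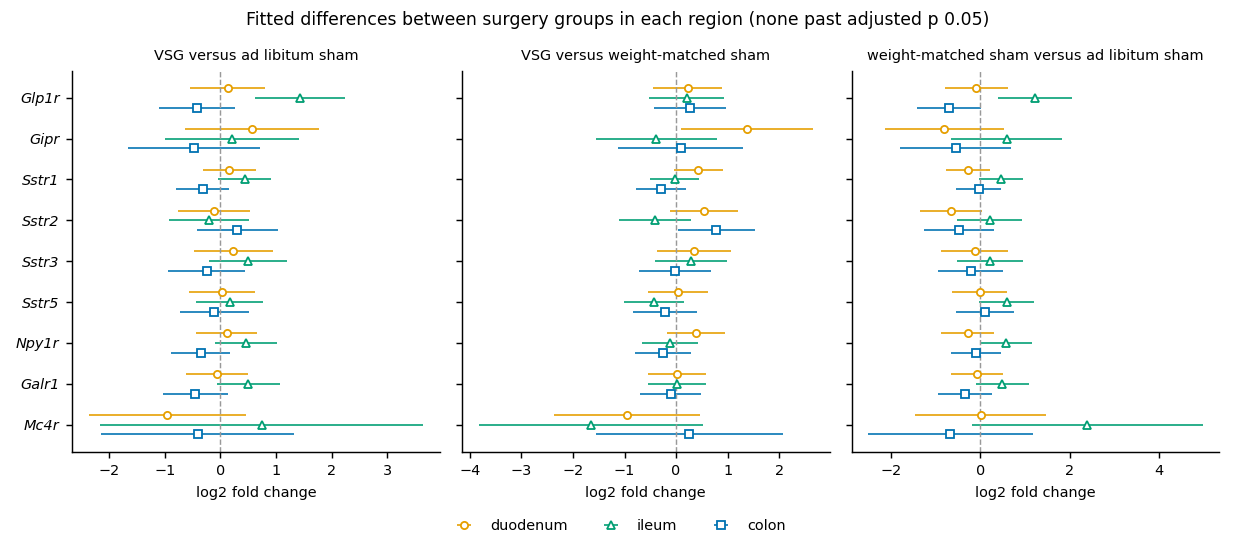
Log2 differences between surgery groups within each region (horizontal axis) for 9 receptors, with bars for 95% intervals from the edgeR fit, and Cckar left out because whole groups held no count. The intervals of Glp1r in ileum lie above 0 for both VSG and weight-matched mice against ad libitum mice, and, apart from Gipr in duodenum and Sstr2 in colon for VSG against weight-matched mice, all others span 0.

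The genes whose log2 CPM tracked each receptor most closely are given as Pearson correlations over 48 libraries that share depth and sorting, with no test. Over all libraries Galr1 was closest to Nt5e (0.951), an ecto-nucleotidase, followed by Scg3 and Kcnb2. Npy1r was closest to Kif1a (0.946), a motor that carries dense-core vesicles, then Wif1 and Man1c1. Sstr5 was closest to Ffar1 (0.907), a receptor for long-chain fatty acids, then the prohormone convertase gene Pcsk1 and Scgn. Glp1r was closest to Itprid2 (0.897), Sstr1 to Scrn1 (0.846), Sstr3 to Sorcs2 (0.836), Sstr2 to Scn8a (0.780), Gipr to Ccdc177 (0.707), Mc4r to Oxr1 (0.854) and Cckar to Gm44438 (0.855). With the mean of each of the 9 groups taken off, so that region and surgery no longer contribute, Galr1 was closest to Adcy2 (0.864), Glp1r to Cacna2d1 (0.838), Npy1r and Sstr1 both to Krt7 (0.833 and 0.861), Sstr5 to Fxyd3 (0.807) and Sstr3 to Rap1gap2 (0.806). Among the receptors themselves, taken in this way, Sstr1 tracked Npy1r (0.746), Galr1 (0.723) and Glp1r (0.717). The level of EEC markers varied between libraries as well, and its part in these correlations was not tested.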

How the data were processed

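RNA of sorted cells was sequenced as 50-base single-end reads (SMARTer stranded pico v2 kit). Per the labels and the submitters' processing notes, the authors aligned reads with STAR 2.5.1 to GRCm38 and deposited raw counts per Ensembl gene. The strand setting of counting was not given in the sources used here. No exon of a receptor overlapped another gene's exon in GENCODE M21, to which 53360 of 53465 genes matched.

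Counts were fitted with edgeR 4.0.16 (R 4.3.3; filterByExpr, TMM, 1 mean for each of 9 groups, robust quasi-likelihood) on all 48 libraries, with Benjamini-Hochberg adjustment over 15126 genes at 0.05. Region contrasts were averaged over surgery groups, and surgery contrasts were made within regions and over their mean. RPKM used merged exon length. Alternatives were DESeq2 1.42.0 and its size factors, other filters, limma 3.58.1 voom with the mouse as block, a fixed mouse block, the library index, omitted libraries and, after the data were seen, EEC marker level. The mouse numbers pair libraries of 1 animal across regions (46 pairs, median correlation of deviations 0.111), not across surgery groups. Named genes were all 10 receptors, ligands, list genes that were called, and the member of lowest p per surgery contrast. Members and lists were chosen with earlier results of these data known. Human samples and other assays were not analysed here.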

Additional observations from a re-analysis of the deposited data

Results flagged for a closer look

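Within groups of 5 or 6 libraries, 12 of 88 receptor groups held a library far from the others by Dixon's test. The chance rate of that test, about 1 in 20 groups, holds for normally distributed values and cannot be applied to groups with few counts. Where only a single library of a group held any count, that library passed whatever its level. The 12 cases therefore do not show an excess over chance. Groups of several receptors share libraries, so the 12 cases are not separate events. The duodenum library of weight-matched mouse 27 was the lowest of its group for Glp1r (8.24 CPM, others 63.3 to 80.9), Sstr5 (12.4 CPM, others 42.7 to 52.6) and Mc4r (1.73 CPM, others 6.02 to 6.76). The same library had the lowest EEC marker level of the duodenum (11608 CPM), and the part of that in these values was not tested.

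VSG mouse 18 was the highest of its group for Sstr1 in ileum (238 CPM, others 96.9 to 137) and for Sstr3 in duodenum (28.1 CPM, others 7.04 to 10.4). Weight-matched mouse 31 was the highest for Sstr1 in colon (123 CPM, others 58.1 to 71.5) and for Cckar in ileum (1.57 CPM, 12 counts, others 0 to 0.426). Ad libitum mouse 32 was the lowest for Npy1r in colon (36.5 CPM, others 81.2 to 96.4).

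The other cases rested on few counts in groups otherwise at 0. Cckar stood at 0.234 CPM (2 counts) in weight-matched mouse 16 in duodenum and at 0.116 CPM (1 count) in VSG mouse 11 in ileum. Mc4r stood at 0.256 CPM (2 counts) in ad libitum mouse 13 in ileum and at 0.697 CPM (5 counts) in VSG mouse 22 in ileum.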

How the results depend on the processing

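The number of receptors called stayed within 1.5 times its value in every comparison and alternative, and was 0 in every surgery contrast. The numbers between regions include the calls of Mc4r and Cckar that the filter on low counts favoured in advance. For the region differences of each receptor and the receptor of lowest p in each surgery contrast, 1111 values kept their direction and side of the threshold, 27 passed it only under an alternative, 7 lost it and 8, all between regions, changed sign. Over all 120 surgery differences of the receptors, 54 took both signs among the alternatives (Gipr in duodenum, VSG against ad libitum, from -0.47 to 0.92, and Glp1r there from -0.46 to 0.25), and 0 were called under any of them. Leaving out 1 mouse at a time gave 6 to 7 receptors for ileum against duodenum, 8 to 10 for colon against duodenum and 7 to 8 for colon against ileum. With the mouse as a fixed replicate block in edgeR these were 7, 9 and 7, with limma voom and the block 7, 9 and 8, and the block moved the calls of Gipr against duodenum and of Mc4r between colon and ileum. With the library index as a covariate they fell to 6, 6 and 6, against 6, 8 and 8 in the main fit. In colon against duodenum Glp1r, Sstr5 and Galr1 were then no longer called, and Gipr was. The sign changed with the library index as a covariate for Galr1 in ileum against duodenum (0.26) and for Glp1r (0.13) and Sstr1 (0.33) in colon against duodenum. It changed for Sstr5 in ileum against duodenum without the mouse 27 duodenum library (-0.023), and with single mice omitted it ran from -0.0014 to 0.12. For Cckar in the same comparison, where both regions held few counts, it was -0.17 without mouse 11 and -0.42 without mouse 31, in a range up to 1.002. The index shares too few libraries between duodenum and colon to separate them, and the cause of these changes was not tested. Over all genes, VSG against weight-matched in duodenum gave 34 calls, 201 with DESeq2 and 0 without the mouse 27 duodenum library. At 9 to 616 counts a region, Cckar and Mc4r allow no fine comparison outside their main region.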
